A study of Mus musculus with 5 samples.

Results

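The genes described here belong to the cellular response to interferon: Ifi27, Ifi35, Isg15, Ifit1, Ifit3, Irf1, Irf7 and Irf9. They were chosen by name from a list of 9 symbols, and all probe sets annotated to these symbols were used. The array annotation held 9 probe sets for 8 of the 9 genes, out of 12488 probe sets in all. Stat2, the remaining symbol of the list, was not analysed here. The list was made with earlier results of these data known.

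Interferons are secreted proteins, and those of type I are released by cells that sense viral nucleic acid. Interferons bind surface receptors whose attached JAK kinases phosphorylate STAT factors. For type I interferon, a complex that contains IRF9 binds the interferon-stimulated response element (ISRE) of target genes, whereas the response to interferon gamma runs mainly through gamma-activated sites (GAS). In B cells and plasma cells several IRF factors also act in development, apart from any response to interferon.

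The study measured polyadenylated RNA from 5 mouse cell cultures, each on 1 Affymetrix expression array. AxJ, a line labelled as plasma cells, had been stably transfected with empty vector (1 array), to overexpress hnRNP-H, an RNA-binding protein (1 array), or to overexpress the related protein hnRNP-F (subclones B5 and D6, 1 array each, 2 in all). The submitters picked clones for high protein levels by western blot, so each AxJ array stands for a selected transfectant. A20, a line labelled as memory B cells, was not transfected (1 array). Per the labels' protocols the AxJ cultures grew with the selection drug G418 and A20 without it, so cell line and drug cannot be told apart. The labels list no treatment for any culture. The Hnrnpf and Hnrnph1 levels, which bear on the overexpression, were not used here.

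As deposited, array medians lay between 33.9 and 41.7. The Gapdh controls, whose 5' signal over 3' signal falls with degraded or poorly labelled RNA, gave ratios of 0.181 (B5) and 0.212 (empty vector), then 0.384 (A20), 0.683 (D6) and 0.866 (hnRNP-H). The markers called in A20 followed the labels as plasma cells and B cells. Of 7 plasma cell markers 4 fell in A20 and none rose, and of 9 measured B cell markers 6 rose and none fell. The others were not called, and the plasma cell marker Sdc1 (30.6 in A20) and the B cell marker Ciita (50.6) lay inside the AxJ range. Whether A20 are memory cells was not tested. Summed myeloid markers (6 measured genes) read 160 to 375 on the AxJ arrays and 183 in A20, and 3 of 4 measured T cell markers did not exceed the filter level of 21.8 on any array. That level is the 40th percentile of all values, used below as the mark under which a probe set is called dim. Of the 6 B cell markers that rose, Bcl6, Spib, H2-Aa and Cd22 exceeded it only in A20, the array in which they are high. That count therefore rests in part on genes kept through A20 alone.

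The promoters of 3 members carry the ISRE letters and are shown because these are the classical interferon-stimulated genes of the set. The letters searched were GAAA, any 2 letters and GAAA again for the ISRE and TTCNNNGAA for the GAS, on both strands, in RefSeq windows from 250 bases before to 50 after each start site (GRCm38.p6). Each sequence runs 5′ to 3′ on the strand of its gene, with the matched letters in capitals. The Isg15 window (chr4:156200860-156200911, minus strand) holds 3 overlapping ISRE matches, the first beginning 78 bases before the start site. The Ifit1 window (chr19:34640770-34640828, plus strand) and the Ifit3 window (chr19:34583358-34583431, plus strand) hold 2 each. Irf1 (chr11:53769909-53769947, plus strand) has 1 GAS match, beginning 90 bases before its start site.
Isg15: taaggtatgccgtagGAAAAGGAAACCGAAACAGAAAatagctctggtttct
Ifit1: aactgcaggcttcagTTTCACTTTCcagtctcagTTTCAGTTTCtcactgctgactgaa
Ifit3: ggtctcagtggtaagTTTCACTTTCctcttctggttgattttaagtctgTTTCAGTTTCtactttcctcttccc
Irf1: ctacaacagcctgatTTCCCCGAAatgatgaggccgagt

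Of the 7 measured members with a promoter window, 3 held the ISRE letters, against 3.99% of all 27025 genes with a window. The GAS letters stood in 2 of the 7, Irf1 and Ifi35, against 9.55% of all genes. Irf7 and Irf9 had neither set of letters in their windows, which says nothing of sites elsewhere. Ifi27, the remaining measured member, had no promoter window, so it was not searched for either set of letters. A match is a match of letters and was not tested as a binding site.

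Expression levels below are quantile-normalised intensities. A difference is one of log2(intensity + 6.55), a scale that makes changes of dim probe sets look smaller. Differences were fitted with limma over all 5 arrays, once for the 2 hnRNP-F clones and once for A20. Both were set against the 2 AxJ control arrays (hnRNP-H and empty vector), so both comparisons share these arrays. Of the 9 member probe sets, 7 passed the filter on low values and were tested, and those for Ifit1 and Ifit3 did not pass it. The median log2 level over the 9 member probe sets was 5.81 with empty vector, 5.33 with hnRNP-H, 5.65 in clone B5, 5.07 in clone D6 and 5.16 in A20.

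**Figure D1:**
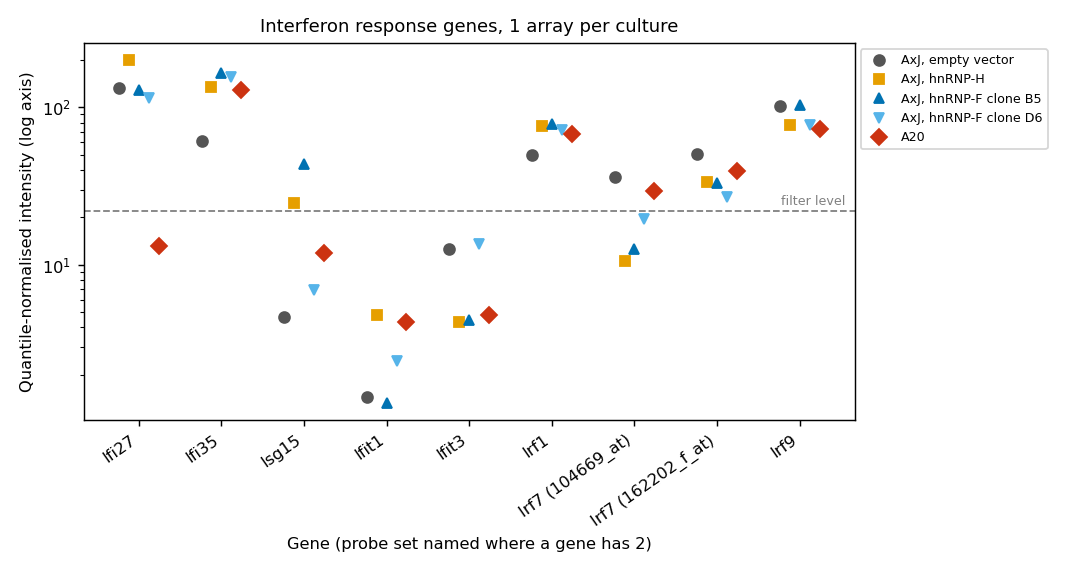
Quantile-normalised intensity (log axis) of the 9 member probe sets, with 1 point per array and no error bars, since each culture was measured once. Ifi27 lies between 114 and 200 in the AxJ lines and at 13.1 in A20, and Ifit1 and Ifit3 lie below the dashed filter level of 21.8 on all 5 arrays.

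The 2 questions put to these genes were how A20 differs from the plasma cell line, and what hnRNP-F overexpression changes within that line. In A20, 1 of the 7 tested member probe sets fell and none rose. The background share was 5.89% of all 9107 tested probe sets called in either direction, and 2.99% called lower. The probe set that fell was that of Ifi27, which encodes a small mitochondrial membrane protein strongly induced by type I interferon. In the hnRNP-F clones none of the 7 passed.

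Ifi27 read 133 with empty vector, 200 with hnRNP-H, 129 in clone B5, 114 in clone D6 and 13.1 in A20. The 4 AxJ arrays lay close together and A20 lay far below all of them. In RNA of a whole culture, fewer expressing cells and less RNA per cell cannot be told apart. The fall was 3.12 on the log2 scale in A20 against the controls (-3.12, SE 0.43, 95% interval -4.09 to -2.14, limma adjusted p = 0.00521). In deposited intensities Ifi27 read 10.1 in A20, and the AxJ arrays stood 11.5-fold to 20.1-fold above it. The A20 value is dim, so the fitted size depends on the pseudocount, with -3.35 at the 10th percentile and -2.41 at the 40th. Over 12 alternatives it ran from -3.40, without the empty vector array, to -2.41. Its adjusted p stayed between 0.00102 and 0.0432 over them.

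Ifi27l2a, a gene of the same family, was also lowest in A20, though its difference did not pass. It was picked out after its values were seen. It read 151 with empty vector, 121 with hnRNP-H, 281 in clone B5, 124 in clone D6 and 43.2 in A20, a log2 difference of -1.51 in A20 (SE 0.51, limma adjusted p = 0.137).

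Ifi35, a leucine zipper protein that partners with Nmi, read 60.9 with empty vector, 134 with hnRNP-H, 165 in clone B5, 155 in clone D6 and 128 in A20. The empty vector array alone was low, and the other 4 arrays lay within a narrow band. Both hnRNP-F clones lay above both controls, with a log2 difference of 0.77 (SE 0.40, 95% interval -0.13 to 1.68, limma adjusted p = 0.790). Without the empty vector array that difference was 0.24, and without hnRNP-H it was 1.30 (adjusted p = 0.185). The A20 difference was 0.47 (SE 0.48) and turned to -0.06 without empty vector.

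Isg15 encodes a ubiquitin-like protein that is joined to other proteins during an antiviral response. It read 4.68 with empty vector, 24.5 with hnRNP-H, 43.7 in clone B5, 6.95 in clone D6 and 11.9 in A20. It was above the filter level in hnRNP-H and B5 only, so the clones differed from each other more than the groups did. D6 lay 1.90 lower than B5 on the log2 scale (-1.90), with 1 array each and no test. The hnRNP-F difference was 0.48 (SE 0.81, 95% interval -1.37 to 2.33, limma adjusted p = 0.924) and ran from -0.47 without B5 to 1.43 without D6. The A20 difference was -0.01 (SE 0.99, 95% interval -2.28 to 2.25), so a several-fold change in either direction could not be detected.

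Ifit1 and Ifit3 encode tetratricopeptide proteins that restrain viral RNA. Ifit1 read 1.44 with empty vector, 4.78 with hnRNP-H, 1.33 in clone B5, 2.43 in clone D6 and 4.30 in A20. Ifit3 read 12.5 with empty vector, 4.30 with hnRNP-H, 4.43 in clone B5, 13.6 in clone D6 and 4.83 in A20. Both were dim on every array and no difference was tested. Together with Isg15 they are the members with the ISRE letters printed above, and none of the 3 exceeded 43.7 on any array.

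Irf1, a transcription factor induced mainly by interferon gamma, read 49.7 with empty vector, 75.8 with hnRNP-H, 78.1 in clone B5, 71.8 in clone D6 and 68.1 in A20. Only the empty vector array stood apart, and it was the lowest. The hnRNP-F difference was 0.26 (SE 0.37, 95% interval -0.58 to 1.09) and the A20 difference 0.13 (SE 0.45, 95% interval -0.89 to 1.16). The limma adjusted p was 0.907 and 0.919.

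Irf9, the DNA-binding subunit of the complex that reads the ISRE, read 102 with empty vector, 77.0 with hnRNP-H, 104 in clone B5, 76.8 in clone D6 and 72.8 in A20. The arrays fell into 2 levels, with empty vector and B5 above the other 3, and these 2 also had the lowest Gapdh ratios. Whether the ratio has a part in it was not tested. A20 was the lowest, by -0.07 (log2) against hnRNP-H and against D6. The hnRNP-F difference was 0.02 (SE 0.35, 95% interval -0.78 to 0.81) and the A20 difference -0.26 (SE 0.43, 95% interval -1.24 to 0.71), with limma adjusted p of 0.995 and 0.813.

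Irf7, the factor that amplifies type I interferon production, had 2 probe sets that disagreed in part. The first read 36.0 with empty vector, 10.6 with hnRNP-H, 12.5 in clone B5, 19.6 in clone D6 and 29.3 in A20. The second, of a kind whose probes may match related sequences, read 50.4 with empty vector, 33.6 with hnRNP-H, 33.2 in clone B5, 27.0 in clone D6 and 39.4 in A20. In both, empty vector was highest and A20 second. The hnRNP-F differences were -0.28 (SE 0.61) and -0.39 (SE 0.43), and the A20 differences were 0.41 (SE 0.74) and -0.06 (SE 0.53). The limma adjusted p lay between 0.834 and 0.974 for these 4 values.

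**Figure D2:**
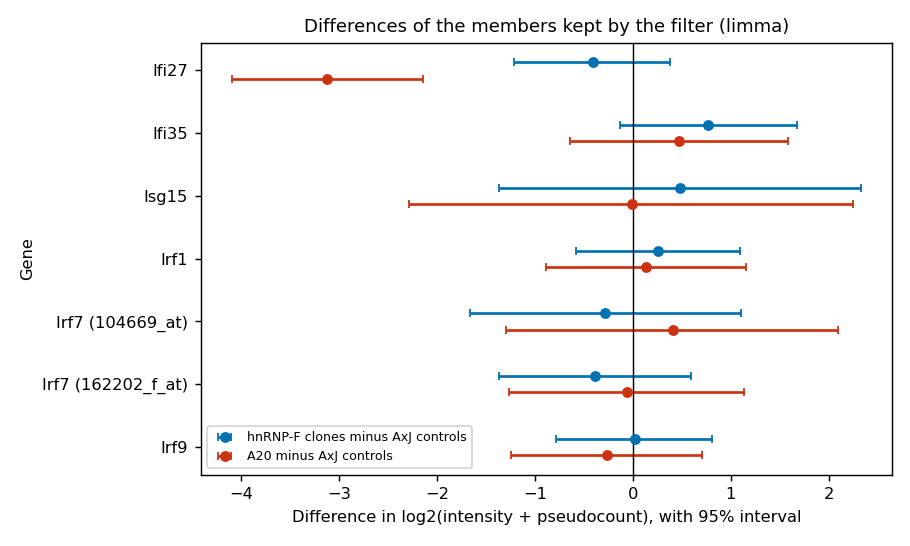
Fitted differences on the scale of log2(intensity + 6.55) with 95% intervals (horizontal bars) for the 7 member probe sets tested, hnRNP-F clones (2 arrays) and A20 (1 array) each against 2 AxJ controls. The A20 interval of Ifi27, -4.09 to -2.14, is the only one of the 14 intervals that does not reach 0.

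Within the AxJ line the members gave no call. Over the 7 tested probe sets the hnRNP-F differences ran from -0.41 (Ifi27) to 0.77 (Ifi35), with limma adjusted p from 0.790 to 0.995, and none had an unadjusted p under 0.05, beside 5.79% of all tested probe sets. The background of this comparison was 0.0110% of probe sets called. The clones did not overlap the controls for 3 of 7 member probe sets, against 37.6% of all tested probe sets. These were Ifi35 above, and Ifi27 and the second Irf7 probe set below. The median difference over all 9 member probe sets was 0.02, against 0.00 over all 12422 probe sets.

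Single AxJ arrays also differed from each other. The line with hnRNP-H was at least 2-fold from empty vector for 3 of 7 member probe sets, against 18.1% of all: Ifi35 by 1.06, Isg15 by 1.47 and the first Irf7 probe set by -1.31 on the log2 scale. Empty vector was the highest or the lowest of the 5 arrays for 5 of 7, against 50.1% of all. D6 was at least 2-fold below B5 for 1 of 7, Isg15, against 5.74% of all. These comparisons have 1 array a side and no replicate check. A20 lay outside the range of the AxJ arrays for 2 of 7 members, Ifi27 and Irf9, both below, against 54.9% of all tested probe sets.

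By profile, the genes nearest to each of the 3 members with the widest range were sought among 6626 other genes, by Euclidean distance of centred log2 values over the 5 arrays. For Ifi27 they were Myc (distance 0.34), Yap1 (0.48) and Rell1 (0.50), against a median distance of 2.78. Myc read 1480, 1630, 1150 and 1060 in the AxJ lines (empty vector, hnRNP-H, B5, D6) and 186 in A20. For Isg15 they were Clip2 (0.46), Gdf5 (0.51) and Sult1c1 (0.58), with a median of 2.0. Clip2 and Sult1c1 exceeded the filter level only in B5 (22.3 and 25.4), where Isg15 was also highest, and were dim elsewhere. For Ifi35 they were Nr2c2ap (0.06), Cdk5rap3 (0.16) and Rcan1 (0.20), with a median of 1.43. With 5 arrays such nearness is a description only.

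The rest of the pathway was read from a list of 106 genes, of which 73 had a probe set and 58 passed the filter with their main probe set, the one of highest mean log2 value. In A20 3 of the 58 rose and 2 fell, beside 2.90% and 2.99% of all probe sets. An unadjusted p under 0.05 was found for 15 of the 58, beside 19.3% of all probe sets. In the hnRNP-F clones none rose or fell by limma, and 1 of the 58, Ifnar2, had an unadjusted p under 0.05, beside 5.79% of all probe sets. The median difference over all 73 genes was 0.04 in A20 and 0.03 in the hnRNP-F clones, against -0.03 and 0.00 over all probe sets. The A20 count fell from 5 to 2 without B5 and likewise without D6.

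**Figure D3:**
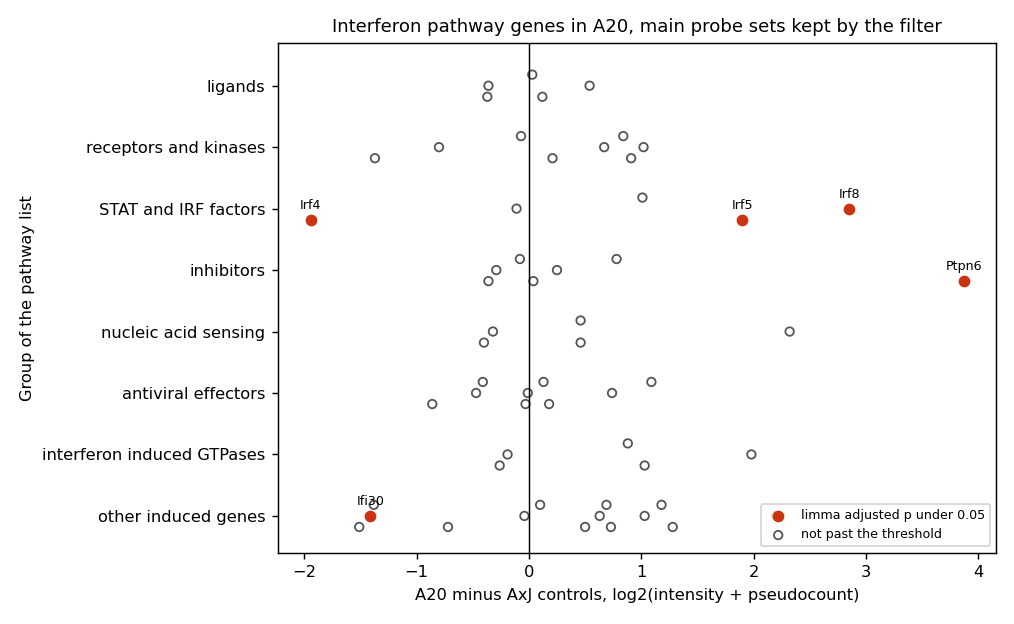
A20 minus AxJ controls on the scale of log2(intensity + 6.55) for the main probe sets of 58 pathway genes, by group, with 1 point per gene. Filled points are the 5 genes past the limma threshold: Ptpn6, Irf8 and Irf5 above 0, and Irf4 and Ifi30 below 0.

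None of the 5 tested ligand genes passed in either comparison. Ifnb1, the interferon beta gene, read 56.5 with empty vector, 17.4 with hnRNP-H, 28.3 in clone B5, 16.2 in clone D6 and 23.7 in A20, with an A20 difference of -0.36 (SE 0.72). Its high array was empty vector, as for Irf7. Ifng, the interferon gamma gene, reached 16.0 at most and was not tested, and likewise Ifna11 with 10.3. The interferon alpha genes are near-identical copies, so their probe sets cannot be assigned to single genes with certainty. Ifna2, Ifna4, Ifna5 and Ifna9 differed by -0.37, 0.12, 0.03 and 0.54 in A20, with limma adjusted p from 0.777 to 0.985.

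Receptor and kinase genes gave no limma call with their main probe sets (0 of 8 in either comparison). An unadjusted p under 0.05 was found for 2 of the 8 in A20, Jak1 and Il10rb, beside the 19.3% of all probe sets given above. Ifnar1, a chain of the type I receptor, was level across the lines, with 56.1 with empty vector, 46.7 with hnRNP-H, 45.1 in clone B5, 48.8 in clone D6 and 48.5 in A20. Its A20 difference was -0.07 (SE 0.46, 95% interval -1.12 to 0.98).

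The partner chain Ifnar2 had 2 probe sets of opposite direction. The main one read 33.6 with empty vector, 38.8 with hnRNP-H, 62.9 in clone B5, 77.9 in clone D6 and 73.9 in A20, an A20 difference of 0.91 (SE 0.45, limma adjusted p = 0.318). In this probe set both clones lay above both controls, by 0.84 (SE 0.37, adjusted p = 0.790). The other read 81.5 with empty vector, 62.1 with hnRNP-H, 46.2 in clone B5, 94.0 in clone D6 and 4.10 in A20, a fall of 2.87 (-2.87, SE 0.55, adjusted p = 0.0220). Which Ifnar2 transcripts each probe set matches was not analysed here, so the level of the gene as a whole cannot be read from them.

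For interferon gamma, Ifngr1 read 24.2 to 41.2 in the AxJ lines and 62.5 in A20, a difference of 0.67 (SE 0.51), and Ifngr2 differed by -0.80 (SE 0.84). Il10rb, a chain shared by the receptors of interleukin 10 and interferon lambda, read 606 with empty vector, 247 with hnRNP-H, 297 in clone B5, 316 in clone D6 and 146 in A20. Its difference of -1.37 (SE 0.50, limma adjusted p = 0.171) passed only without hnRNP-H (adjusted p = 0.0221). Among the kinases, Jak1 read 141 to 169 in the AxJ lines and 315 in A20 (1.02, SE 0.36, adjusted p = 0.155). Jak2 differed by 0.21 and Tyk2 by 0.84, neither past the threshold.

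The IRF and STAT group held 3 of the 5 calls. Irf8, an IRF factor of B cells and myeloid cells, read 24.8 with empty vector, 24.8 with hnRNP-H, 21.7 in clone B5, 15.1 in clone D6 and 220 in A20. It rose by 2.85 in A20 (SE 0.51, limma adjusted p = 0.0173). Irf5, which acts downstream of Toll-like receptors, read 168 to 222 in the AxJ lines and 731 in A20, a rise of 1.90 (SE 0.35, adjusted p = 0.0179). Irf4, needed for plasma cell formation, read 946 with empty vector, 1500 with hnRNP-H, 775 in clone B5, 1350 in clone D6 and 305 in A20, and fell by 1.94 (-1.94, SE 0.42, adjusted p = 0.0330). These 3 factors have roles in B cell development besides interferon. A20 lay outside the AxJ range for each of them, against 54.9% of all tested probe sets. The 3 were named for their calls in A20, so nothing is read from this. The Irf4 probe set is also 1 of the 4 plasma cell markers that fell in A20, so these are not separate results. Stat3 (-0.11) and Irf3 (1.01) did not pass.

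Irf5 lost its call under 3 of 12 alternatives: without B5 (limma adjusted p = 0.0660), without D6 (0.0609) and with no intensity trend (0.102). Irf4 lost it under 6 of 12: the same 3 (0.0588, 0.0562 and 0.163), without hnRNP-H (0.0800), with no filter (0.0765) and with a common median (0.0743). Without B5 or D6 the differences stayed at 1.90 and -1.94, and the direction turned under none of the 12 for either gene.

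Among the inhibitors 1 of 7 rose in A20. Ptpn6, which encodes the phosphatase SHP-1, a brake on cytokine and B cell receptor signalling, read 47.2 with empty vector, 56.2 with hnRNP-H, 49.1 in clone B5, 91.6 in clone D6 and 843 in A20. Its rise of 3.87 (SE 0.46, limma adjusted p = 0.00247) was the largest A20 difference of the list and passed under all 12 alternatives. Socs1 differed by -0.08, and Usp18, which removes ISG15 from proteins, was dim on every array with at most 5.92.

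None of the tested genes passed among those of nucleic acid sensing (5), antiviral effectors (9) and interferon-induced GTPases (5). Ifih1, the double-stranded RNA sensor MDA5, read 64.4 in A20 against 1.48 to 18.5 in the AxJ lines (2.32, SE 0.91, limma adjusted p = 0.204). Tbk1, the kinase that activates IRF3, differed by 0.46 (SE 0.34). Gbp3, a guanylate-binding protein, read 86.7 in A20 against 10.3 to 24.1 (1.98, SE 0.65, adjusted p = 0.130), and Irgm2 read 117 against at most 85.0 (1.03, SE 0.45, adjusted p = 0.256). Beside Ifi27, A20 was at least 2-fold below each AxJ array for 4 of the 58 list genes (Ifi27l2a, Ifi30, Irf4 and Pml) and at least 2-fold above each for 6 (Gbp3, Ifih1, Irf5, Irf8, Ptpn6 and Trim30a). Over all probe sets these shares were 4.88% and 5.29%. Ifih1 and Trim30a passed the filter on low values only through A20, the array in which they are high. The other Trim30a probe set was dim on every array and lowest in A20 (0.636).

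Several classical induced genes were dim in both lines. Ifit2 reached 3.77 at most over the 5 arrays, Oas1g 6.83, Gbp2 7.33, Ifi47 4.18 and Cxcl9 12.7. In all, 15 of the 73 main probe sets did not exceed the filter level on any array, 4 of 9 among the GTPases and 3 of 12 among the antiviral effectors. This share of 20.5% is near the 26.7% of all probe sets that were dim, so it is no mark of the list. A probe set can be dim because its probes bind poorly, which was not tested.

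In the group of other induced genes, 1 of 14 passed. Ifi30, the lysosomal thiol reductase GILT, which acts in antigen processing, read 693 with empty vector, 712 with hnRNP-H, 586 in clone B5, 844 in clone D6 and 261 in A20. It fell by 1.41 (-1.41, SE 0.34, limma adjusted p = 0.0480), with A20 below all 4 AxJ arrays. The call was lost under 9 of 12 alternatives, among them each array left out in turn (adjusted p from 0.0746 to 0.115).

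Clone B5 stood apart for 2 antiviral effectors. Isg20, an RNA exonuclease, read 51.6 in B5 against 5.50 in empty vector, 9.22 in hnRNP-H, 15.6 in D6 and 9.05 in A20. Ifitm3, a membrane protein that blocks virus entry, read 45.2 in B5 against 2.82, 6.47, 10.1 and 16.9 in the same order. These were the 2 of 58 list genes at least 2-fold above each other array in B5, against 1.01% of all probe sets. Both passed the filter on low values only through B5, so nothing is read from this count. Isg15 was also highest in B5, but hnRNP-H came within 2-fold of it. The myeloid marker Lyz2 likewise read 47.0 in B5 and at most 4.22 elsewhere, and Cd14 read 251 in B5 against at most 129. Lyz2 too passed the filter only through B5. Csf1r was also highest in B5 (68.9, against 22.7 to 54.0 elsewhere). Mpo went the other way and was lowest in B5 (2.25, against 13.8 to 25.6 elsewhere). The myeloid markers Itgam (3.01) and Adgre1 (3.49) were dim in B5. The summed myeloid markers were highest there, the 375 given above. The part of other cells in these values was not tested. The hnRNP-F differences of Isg20 (1.38, SE 0.67) and Ifitm3 (1.41, SE 0.73) did not pass (limma adjusted p = 0.790 for each).

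**Figure D4:**
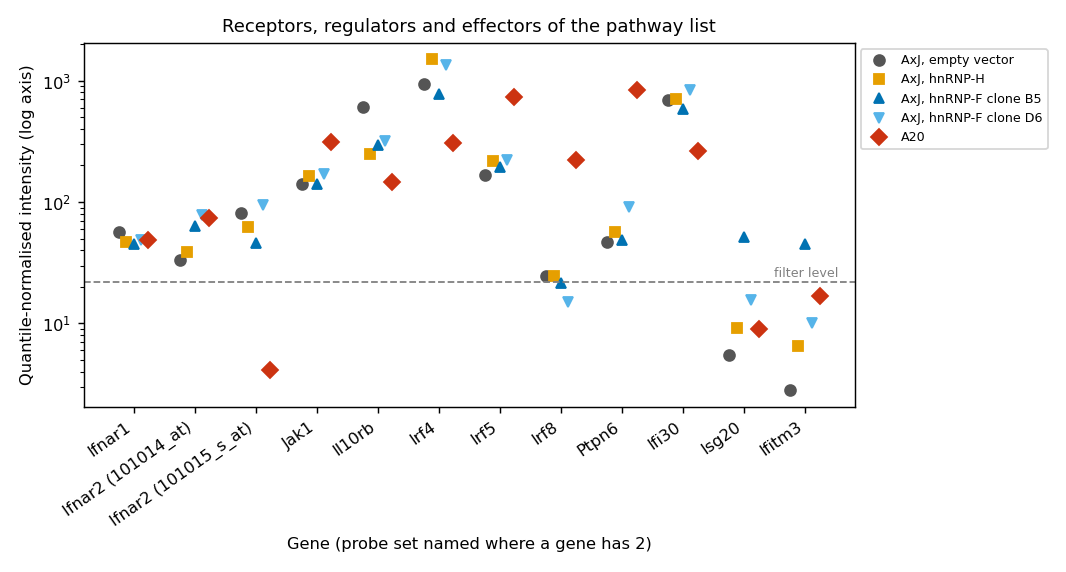
Quantile-normalised intensity (log axis) of receptor, regulator and effector genes of the pathway list, with 1 point per array and no error bars. A20 is far above the AxJ arrays for Irf8 (220) and Ptpn6 (843) and far below them for 1 of the 2 Ifnar2 probe sets (4.10), and B5 is highest for Isg20 (51.6) and Ifitm3 (45.2).

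Genes with the ISRE letters in their promoter window were also followed beyond the pathway list. Of 196 such genes that passed the filter, 5 rose and 5 fell in A20 by limma. This is a share of 5.1%, beside 6.79% of 5127 genes without the letters, and the difference of the shares was not tested. The median A20 difference over all measured genes was -0.02 with the letters and -0.02 without. In the hnRNP-F clones none of the 196 was called. The 5 that rose in A20 were Ebf1 (3.81), a B cell transcription factor, Wipf1 (2.75), Brca2 (1.99), Pold2 (1.98) and Ndufs3 (1.53). Ebf1 passed the filter on low values only through A20, the array in which it is high, so nothing is read from its part in the count. The 5 that fell were Cytip (-2.80), Ddost (-1.68), Romo1 (-1.59), Shisa5 (-1.59) and Psmg4 (-1.23). Of the pathway list, 23 of 62 genes with a window held the letters.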

How the data were processed

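The deposited values are linear intensities, 1 per probe set and array, which the authors had scaled to a trimmed mean of about 150.1. Their software is not given in the sources used here. Of 12488 probe sets, 66 controls were left out. Symbols came from the 2016 array annotation, updated by gene identifier, and 10855 probe sets had 1 symbol, 396 several and 1237 none.

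The A20 median lay 11.6 percent below the mean of the arrays, so arrays were quantile normalised. The pseudocount of 6.55 is the 20th percentile, and 9107 probe sets exceeding 21.8 on some array were kept. Differences came from limma 3.58.1 in R 4.3.3 (lmFit, eBayes with trend) with 3 coefficients, 2 residual degrees of freedom and a prior of 6.46. All p-values are two-sided and were adjusted by the Benjamini-Hochberg method across the 9107 (threshold 0.05). A20, with 1 array, takes its spread from the AxJ lines. Nothing in the labels says that cultures were repeated. The p-values thus rest on the spread among the 4 AxJ arrays, between empty vector and hnRNP-H and between B5 and D6. Empty vector and hnRNP-H are different constructs treated as replicates, so any effect of hnRNP-H counts as spread. How much of the spread is technical was not tested, and the number of arrays limits the precision. An exact test of 2 arrays against 2 cannot go below a p of 1 in 3.

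Named were all member probe sets, and from each group of the pathway list the genes past the threshold, at most 6, or else the 2 of largest statistic, with all ligands, receptors and kinases. Other genes given with values, such as the dim examples, those far from each AxJ array and those with ISRE letters, were chosen after their values were seen. Members, lists and tests were chosen with earlier results of these data known. On simulated data with 200 changed probe sets the A20 fit recovered 8, 48, 88 and 100 percent of 2, 4, 8 and 32-fold changes, and the hnRNP-F fit 24, 80, 90 and 94 percent. These changes were set on the scale of log2(intensity + 6.55), in probe sets drawn from all those tested. For dim probe sets the same fold of intensity is smaller on that scale, so the percentages overstate its recovery.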

Additional observations from a re-analysis of the deposited data

How the results depend on the processing

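Each comparison was repeated under 12 alternatives: other pseudocounts, filters and scalings, no intensity trend, each AxJ array left out, and another grouping of the arrays. Under these, Ifi27 was the only member called in A20 and no member was called in the hnRNP-F clones. The 5 pathway genes called in A20 became 3 with no filter and 2 with no intensity trend, and between 2 and 4 with 1 AxJ array left out. Over all probe sets the 536 calls in A20 became 311 with no filter, 145 with no intensity trend, 245 without B5 and 256 without D6, so the background moved too. The 1 call in the hnRNP-F clones became 0 with no filter, with no trend and without B5, and 3 without D6. Irf8 lost its call without the filter (adjusted p = 0.0535). The median member levels moved by less than the spread between the clones under both other scalings. No paired analysis was possible because the labels give the groups no shared replicate numbers. Dim probe sets limit what can be read of Isg15, Ifit1, Ifit3 and the first Irf7 probe set.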
